A study of Mus musculus with 6 samples.

Results

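The 9 H2-Mv genes and B2m, listed by name, were followed here as 10 genes of the 35450 for which reads were summed. H2-Mv is the group name for H2-M1, H2-M9, H2-M10.1 to H2-M10.6 and H2-M11, which encode nonclassical class I major histocompatibility heavy chains. B2m encodes beta-2-microglobulin, the light chain that pairs with class I heavy chains. The tissue was the mouse vomeronasal organ, the pheromone-sensing organ of the nasal septum, at postnatal day 60. One group was wild type (Cnpy1+/+, 3 mice). The other was homozygous for a knockout allele of Cnpy1 (Cnpy1-/-, 3 littermates), a gene of the Canopy family of endoplasmic reticulum proteins. Each genotype had 2 males and 1 female, the females being wild type replicate 2 and knockout replicate 3. The labels give no treatment, no strain and no cell type in which the allele was deleted. Poly(A) RNA of both organs of a mouse made 1 directional library, with 60969508 to 71670766 estimated reads per library.

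Vomeronasal neurons fall into an apical layer, which expresses V1R receptors and the G protein subunit Gnai2, and a basal layer, which expresses V2R receptors and the G protein subunit Gnao1. H2-Mv heavy chains are known from subsets of basal neurons, in combinations with particular V2R receptors, and H2-M10 proteins with beta-2-microglobulin have been reported to associate with V2R receptors at the dendritic surface. Unlike classical class I molecules, they are not known for presenting peptides to T cells. Family C V2R receptors, such as Vmn2r1 and Vmn2r2, are co-receptors expressed alongside the more variable V2R receptors.

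How the coding sequences of the H2-Mv genes differ from each other is shown here at their most variable, by 1 stretch of exon 2. In class I genes this exon encodes the first extracellular domain, which forms 1 side of the groove. The 6 sequences below are the closest relatives in pairs, each 60 bases, from the GRCm38 genome on the coding strand. Capitals mark bases that differ from the commonest base of the 9 genes at that column of the alignment, and 54 of the 60 columns varied. The stretch was chosen as the one with most variable columns; over the whole alignment 590 of 984 columns without gaps varied. The stretches lie at chr17:36367866-36367925 (minus strand) for H2-M10.3, chr17:36773397-36773456 (plus) for H2-M10.5, chr17:36461777-36461836 (minus) for H2-M10.4, chr17:36812665-36812724 (plus) for H2-M10.6, chr17:36671658-36671717 (minus) for H2-M1 and chr17:36642102-36642161 (minus) for H2-M9.
H2-M10.3: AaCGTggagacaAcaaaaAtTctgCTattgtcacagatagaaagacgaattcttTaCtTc
H2-M10.5: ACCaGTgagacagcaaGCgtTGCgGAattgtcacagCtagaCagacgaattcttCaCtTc
H2-M10.4: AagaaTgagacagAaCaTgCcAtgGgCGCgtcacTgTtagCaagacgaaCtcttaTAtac
H2-M10.6: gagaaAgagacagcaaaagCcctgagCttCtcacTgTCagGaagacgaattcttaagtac
H2-M1: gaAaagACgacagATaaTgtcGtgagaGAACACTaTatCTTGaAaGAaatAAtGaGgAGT
H2-M9: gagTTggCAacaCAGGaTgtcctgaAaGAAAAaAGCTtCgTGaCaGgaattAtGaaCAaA

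Over the whole coding sequence, identity between H2-Mv genes ran from 59.8% to 89.6% with a median of 66.4% over 36 pairs. H2-M10.3 and H2-M10.5 were the closest pair at 89.6%, H2-M10.4 and H2-M10.6 shared 88.8%, and H2-M1 and H2-M9 shared 85.6%. H2-M11 stood farthest from the rest, with 72.1% identity to its closest relative, H2-M1. Of the 31-base words in each gene's transcripts, the share found in no other gene was 69.7% for H2-M10.5, 71.2% for H2-M10.2 and 76.2% for H2-M10.3. It was 79.9% for H2-M10.4, 81.3% for H2-M10.1, 81.4% for H2-M10.6, 93.5% for H2-M1, 95.7% for H2-M9 and 99.6% for H2-M11. For B2m it was 100%. Salmon, which made the deposited values, divides reads that fit several transcripts among them. Part of the reads of all H2-M10 genes was therefore assigned by estimation, as between H2-M10.3 and H2-M10.5 and between H2-M10.4 and H2-M10.6.

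The promoters are shown for the member that fell most (H2-M10.3), the member that stood higher in the knockout (H2-M10.4) and its closest relative (H2-M10.6), for H2-M1 as the more distant branch, and for B2m. They are RefSeq sequences of GRCm38.p6, matched by symbol for 10 of 10 genes, each printed 5′ to 3′ on the gene's strand. Capitals mark matches, on either strand, to the CCAAT box (searched as ATTGG), the CRE-like core (TGACG), the TATA box (TATAAA, overlapping on both strands in H2-M10.4) or the core of the interferon-stimulated response element. An inverted CCAAT box and a CRE-like box are parts of the module that drives classical class I and B2m promoters. The stretches lie at chr17:36368453-36368532 (minus) for H2-M10.3, chr17:36462365-36462444 (minus) for H2-M10.4, chr17:36812060-36812139 (plus) for H2-M10.6, chr17:36672233-36672312 (minus) for H2-M1 and chr2:122147542-122147641 (plus) for B2m.
H2-M10.3: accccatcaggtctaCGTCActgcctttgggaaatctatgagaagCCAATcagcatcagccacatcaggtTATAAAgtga
H2-M10.4: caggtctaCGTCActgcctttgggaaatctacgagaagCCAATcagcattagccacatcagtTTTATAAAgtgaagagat
H2-M10.6: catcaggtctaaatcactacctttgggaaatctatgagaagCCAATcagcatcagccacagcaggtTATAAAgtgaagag
H2-M1: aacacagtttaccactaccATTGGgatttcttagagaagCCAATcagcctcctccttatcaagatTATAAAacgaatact
B2m: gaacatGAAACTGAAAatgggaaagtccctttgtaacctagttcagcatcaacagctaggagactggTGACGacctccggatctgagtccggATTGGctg

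In the promoter windows of RefSeq, which run from before to just after the gene start, the CCAAT box matched in either orientation in 9 of 9 H2-Mv genes and in 37.4% of all 32851 promoters. On the gene's strand it read CCAAT in 9 of 9, and a match reading ATTGG, the inverted orientation found in B2m, was present in 4 of 9 (H2-M1, H2-M9, H2-M10.1 and H2-M10.4, the last after the gene start). The CRE-like core matched in 4 of 9 (H2-M10.1, H2-M10.3, H2-M10.4 and H2-M10.5) and in 20.8% of all promoters, in all 4 on the strand opposite to the gene, whereas the B2m match in the stretch above is on the gene's strand. The TATA box matched in 7 of 9 against 13.6%. The core of the interferon-stimulated response element matched in 0 of 9 H2-Mv windows and in 3.4% of all promoters, and B2m held 1 match, the first run of capitals in the stretch above. The core bound by Ebf factors (CCCNNGGG) matched in H2-M10.2, H2-M9 and H2-M1 and in 13.7% of promoters, and the homeodomain site TAATTA in 0 of 9 against 5.3%. H2-M10.3 and H2-M10.4, which lay on opposite sides of 0 in the knockout, both carried the CRE-like, CCAAT and TATA matches, and their windows were 83.6% identical.

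The library labels were checked first on the targeted gene. Cnpy1 stood at 280, 303.4 and 325 CPM in wild type and at 67.2, 77.6 and 76.3 CPM in the knockout (log2 fold change -2.04, SE 0.082, edgeR adjusted p = 1.75e-05). CPM are the estimated reads of a gene relative to all reads in genes, scaled by edgeR's TMM factors. Every log2 fold change is knockout minus wild type, and a gene is described as called where edgeR's quasi-likelihood F test gave an adjusted p under 0.05 over the 16679 genes tested. By that rule 0.761% of genes were called, 0.683% lower and 0.0779% higher. Knockout replicate 1 stood apart in interferon response genes, whose 16 listed genes summed to 884.8 CPM there and to 684.2 to 722.6 CPM in the other 5 libraries. It was also the lowest knockout library for 6 of the 9 H2-Mv genes, so fold changes without it are given for the H2-Mv genes below.

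All 9 H2-Mv genes passed the low-count filter, as did B2m, and the family spanned a wide range of levels in wild type. Levels between genes are compared in TPM, an abundance relative to all transcripts that accounts for transcript length. B2m stood highest at 799 ± 62.5 TPM (SD, n = 3), against 383 ± 27.1 TPM for the 9 H2-Mv genes together. H2-M10.5, whose protein has been crystallised with beta-2-microglobulin, led the heavy chains at 105.5, 124.2 and 118.2 TPM, which was 30.3% of H2-Mv RNA on this scale. H2-M10.4 (59.2 ± 8.46 TPM) and H2-M10.1 (55.97 ± 5.67 TPM) came next, and their ranges overlapped. H2-M10.2 (35.3 ± 2.62), H2-M10.3 (31.9 ± 3.42), H2-M1 (30.3 ± 2.00) and H2-M10.6 (29.4 ± 1.02 TPM) formed a middle group in which each gene's range overlapped that of the next. H2-M9 (19.1 ± 0.477 TPM) and H2-M11 (6.08 ± 0.283 TPM) were lowest and separate from their neighbours.

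**Figure D1:**
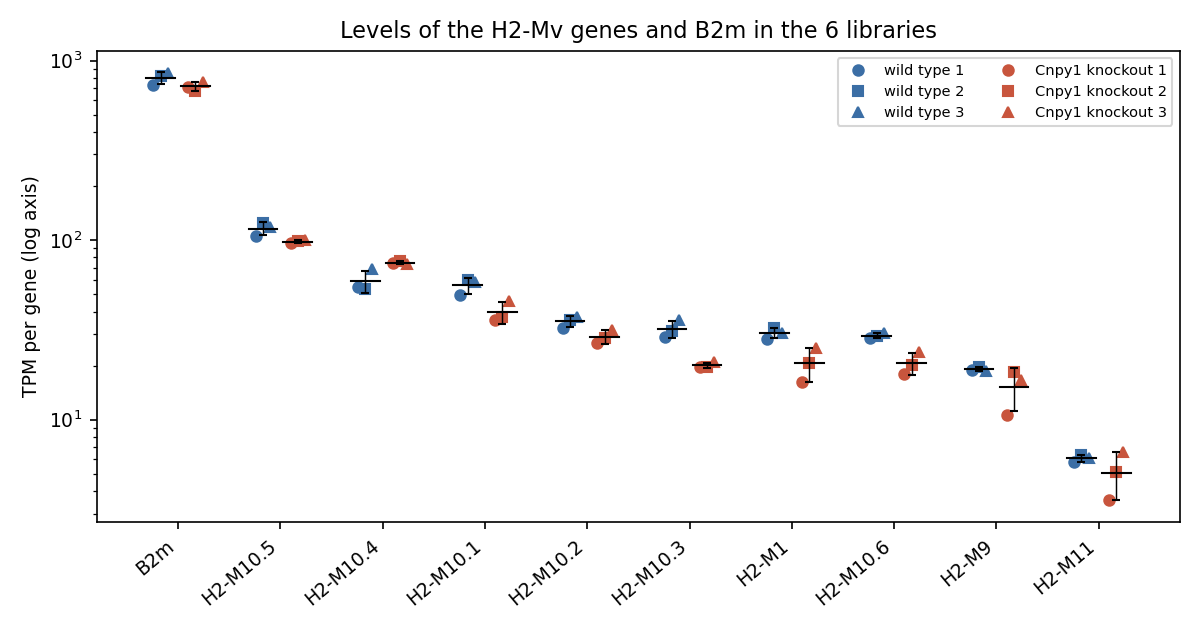
TPM of each H2-Mv gene and B2m in every library, on a log axis, with wild type (blue) and knockout (red) libraries side by side and lines for the mean and SD. B2m lies above every heavy chain, H2-M10.5 leads the H2-Mv genes and H2-M11 is lowest, and H2-M10.4 is the 1 gene whose knockout libraries all lie above the wild types.

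In the knockout, 2 of the 9 heavy-chain genes fell, H2-M10.3 and H2-M10.1, and none was called higher. Of all genes tested 0.683% were called lower and 0.0779% higher. The log2 fold change was below 0 for 8 of 9, with a median of -0.25 beside 0.01 over all genes tested. Without knockout replicate 1 the median was -0.15 with 7 of 9 below 0, and without knockout replicate 2 it was -0.45 with 8 of 9 below 0. For 5 of 9 every knockout library lay below every wild type, where 8.95% of all genes tested did so. H2-M10.4 was the only one of the 9 with all knockouts above, a pattern that 7.22% of all genes showed. An unadjusted p under 0.05 was found for 6 of 9, beside 10.5% of all genes. These are organ homogenates, so fewer cells expressing a gene and less RNA per cell cannot be told apart.

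H2-M10.3 showed the largest decrease among the 9. Its levels were 33.3, 32.0 and 36.2 CPM in wild type and 21.9, 24.2 and 21.4 CPM in the knockout. The 2 sets did not overlap, and the highest knockout stood well below the lowest wild type. By edgeR the knockout changed H2-M10.3 by -0.59 in log2 units (SE 0.0747, adjusted p = 0.0105), which left 66.4% of the wild type level. Without knockout replicate 1 the change was -0.57 with an edgeR adjusted p of 0.0540, so the call ended at nearly the same size.

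H2-M10.1 is the nearest neighbour of H2-M10.3 along the chromosome, and their coding sequences are 89.1% identical. It stood at 45.7, 49.3 and 47.3 CPM in wild type and at 32.1, 36.8 and 37.1 CPM in the knockout, again without overlap. The change was -0.42 in log2 units (SE 0.0675, adjusted p = 0.0351 in edgeR). The call ended whichever of the 6 libraries was left out, with edgeR adjusted p from 0.0578 to 0.186, while the fold change stayed between -0.46 and -0.36. The smallest, -0.36, was that without knockout replicate 1 (edgeR adjusted p = 0.0821).

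H2-M10.6 and H2-M1 had fold changes of the same order and did not pass the test. H2-M10.6 stood at 28.2, 26.1 and 26.8 CPM in wild type and at 17.4, 21.4 and 21.2 CPM in the knockout (log2 fold change -0.43, SE 0.0881, edgeR adjusted p = 0.0939). H2-M1 stood at 19.9, 20.3 and 19.0 CPM against 11.2, 15.5 and 15.8 CPM (-0.48, SE 0.126, edgeR adjusted p = 0.21). Neither gene's knockout libraries overlapped the wild types, and in both the lowest value was that of knockout replicate 1. Without that library the fold change was -0.34 for H2-M10.6 and -0.33 for H2-M1. DESeq2's Wald test called both, with adjusted p of 0.00112 for H2-M10.6 and 0.0119 for H2-M1. By that test 2.51% of the genes with an adjusted p were called.

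H2-M10.4 differed in the other direction. It stood at 44.4, 39.97 and 50.5 CPM in wild type and at 60.7, 68.1 and 53.9 CPM in the knockout. The lowest knockout exceeded the highest wild type by a small margin, and the coefficient of variation in wild type was 11.7%, against 1.57% to 6.44% for the other H2-M10 genes. The difference of 0.44 in log2 units (SE 0.105) did not pass the test (adjusted p = 0.162 in edgeR). DESeq2 called it (adjusted p = 0.00392), as the only one of 18 alternative analyses to do so. Without knockout replicate 1 the difference was again 0.44. Both annotated transcripts of H2-M10.4 had all knockouts above all wild types in CPM, with log2 fold changes of 0.50 and 0.36. The transcript with the longer untranslated part carried 59.4% ± 3.55 of the gene's reads in wild type and 61.7% ± 1.81 in the knockout (SD, n = 3 each), and these shares overlapped. The sum of H2-M10.4 and H2-M10.6, each the closest relative of the other, was 72.6, 66.1 and 77.3 CPM in wild type and 78.1, 89.5 and 75.1 CPM in the knockout, which overlapped.

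The other 4 heavy-chain genes did not pass the test, and 3 of them overlapped between genotypes. H2-M10.5, the most abundant, stood at 102.8, 108.4 and 102.0 CPM in wild type and at 91.2, 102.7 and 86.5 CPM in the knockout (log2 fold change -0.16, SE 0.0722, edgeR adjusted p = 0.498). H2-M10.2 stood at 24.2, 24.2 and 24.9 CPM against 19.4, 22.8 and 21.2 CPM, without overlap (-0.21, SE 0.0714, edgeR adjusted p = 0.346). Without knockout replicate 1 the fold changes of H2-M10.5 and H2-M10.2 were -0.14 and -0.15. H2-M9 ranged from 12.2 to 13.9 CPM in wild type and from 7.59 to 14.4 CPM in the knockout. Its fold change of -0.25 became -0.04 without knockout replicate 1 and -0.49 without knockout replicate 2. H2-M11, the least abundant, ranged from 3.59 to 3.82 CPM in the wild types and from 2.29 to 3.899 CPM in the knockouts. The H2-M11 fold change of -0.19 became 0.01 without knockout replicate 1. The edgeR adjusted p was 0.744 for H2-M9 and 0.805 for H2-M11, with SE of 0.199 and 0.193.

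The light chain differed little. B2m stood at 392.6, 396.8 and 408.0 CPM in wild type and at 376.1, 389.4 and 369.6 CPM in the knockout. Every knockout lay below every wild type on this scale, but the difference of -0.08 in log2 units (SE 0.053) did not pass the test (adjusted p = 0.691 in edgeR), and the knockout mean was 94.8% of the wild type level. In TPM, without TMM scaling, the B2m ranges overlapped, whereas those of H2-M9 and H2-M10.5 separated, with every knockout below. The plot of fold changes sets B2m beside the heavy chains.

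**Figure D2:**
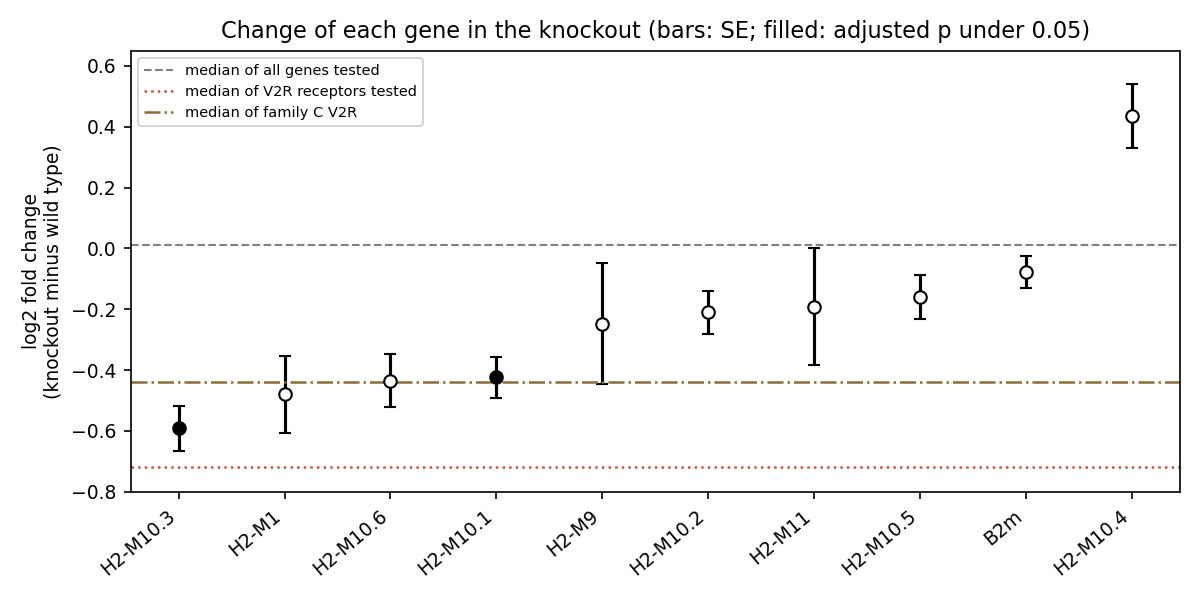
Log2 fold change of each H2-Mv gene and B2m (knockout minus wild type, points, with SE bars), with filled points for edgeR adjusted p under 0.05 and lines at the medians of all genes tested, of the V2R receptors and of family C. H2-M10.3 and H2-M10.1 are the filled points, and H2-M10.4 at 0.44 is the only point above 0.

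Summed over the 9 genes, H2-Mv RNA stood at 316.2, 316.9 and 322.5 CPM in wild type and at 263.7, 309.5 and 271.8 CPM in the knockout. The wild types lay close together, while knockout replicate 2 came near them. The means were 318.5 ± 3.41 and 281.7 ± 24.4 CPM (SD, n = 3 each), a ratio of 88.4% or -0.18 on the log2 scale, and -0.13 without knockout replicate 1. H2-M10.4 was also left out because of its direction, which fixes the sense of what follows, and the other 8 genes summed to 273.6 ± 2.93 and 220.8 ± 19.4 CPM, a ratio of 80.7%. Within the family, H2-M10.4 was 15.6%, 13.7% and 17.1% of H2-Mv TPM in wild type and 24.8%, 23.6% and 21.4% in the knockout. H2-M10.3 was 8.21%, 7.92% and 8.82% of it in wild type and 6.49%, 6.06% and 6.07% in the knockout. The H2-M10.5 share was 30.3% ± 1.24 and 30.4% ± 1.47.

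Since H2-Mv RNA is known from basal neurons, it was set beside Gnao1 and V2R RNA. Gnao1 stood at 305.1, 305.7 and 320.1 CPM in wild type and at 239.6, 224.5 and 237.1 CPM in the knockout (log2 fold change -0.41, SE 0.0548, edgeR adjusted p = 0.0143). All 5 basal neuron markers had every knockout below every wild type, beside 8.95% of all genes tested. They summed to 690.6 to 696.5 CPM in wild type and to 499.1 to 532.1 CPM in the knockout. Of them 2 fell (Gnao1 and Vmn2r1), beside 0.683% of all genes tested. Per 100 CPM of Gnao1, H2-Mv RNA stood at 103.6, 103.7 and 100.7 in wild type and at 110.1, 137.9 and 114.6 in the knockout. This ratio, with H2-M10.4 included, was higher in every knockout. With H2-M10.4 left out it overlapped between genotypes, at 203.0 CPM to 239.6 CPM of Gnao1 in knockout replicate 1. In wild type replicate 3 these were 272.0 and 320.1 CPM. Per 100 CPM of V2R RNA, the 9 genes stood at 5.92, 5.72 and 5.41 against 7.73, 7.77 and 7.15. Per 100 CPM of family C they stood at 38.3, 35.4 and 39.8 against 45.1, 47.6 and 49.99. Without H2-M10.4 the ratios to V2R and to family C RNA were still higher in every knockout. By gene, H2-M10.4 per 100 CPM of Gnao1 was 14.6, 13.1 and 15.8 in wild type and 25.4, 30.3 and 22.7 in the knockout. H2-M10.3 per 100 CPM of Gnao1 overlapped between genotypes (10.9 ± 0.43 and 9.64 ± 0.993 as mean ± SD over 3 mice). H2-M10.5 was 33.7, 35.4 and 31.9 on this scale in wild type and 38.1, 45.7 and 36.5 in the knockout, and H2-M10.2 was 7.94, 7.93 and 7.78 against 8.10, 10.16 and 8.95, so both of these also lay above the wild types in every knockout. The ratios of H2-M1, H2-M9, H2-M10.1, H2-M10.6 and H2-M11 overlapped.

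**Figure D3:**
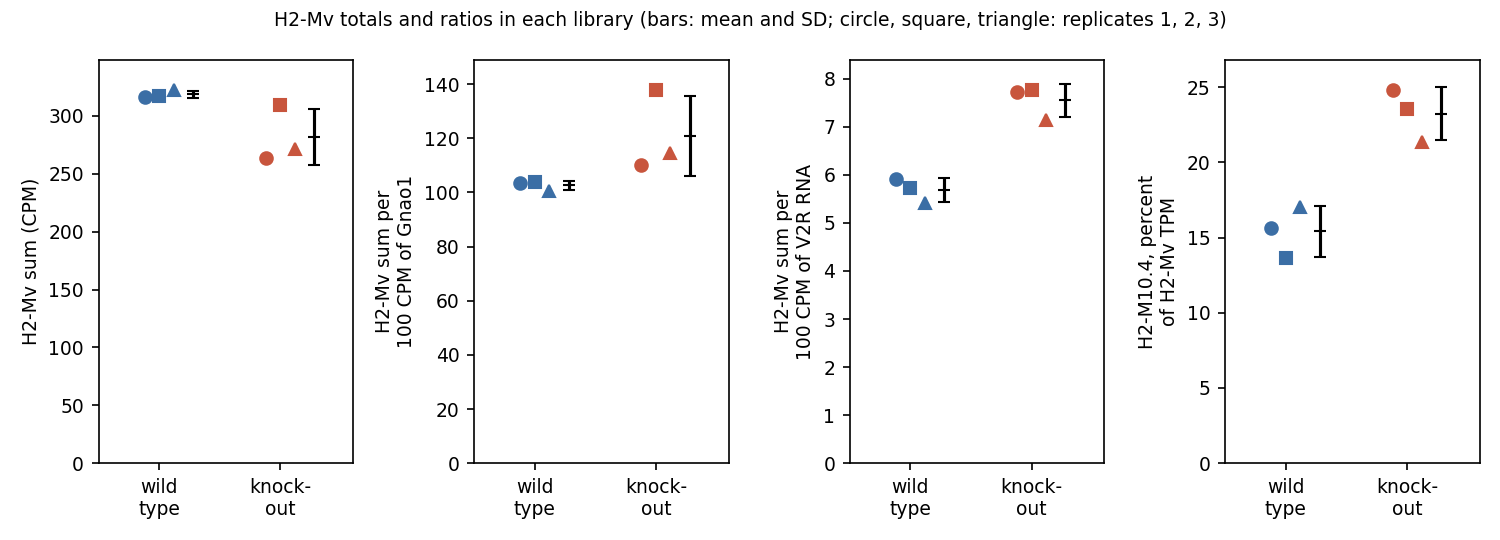
H2-Mv totals and ratios in each library, with mean and SD bars, from left to right as summed CPM, per 100 CPM of Gnao1, per 100 CPM of all V2R RNA, and H2-M10.4 as a percentage of H2-Mv TPM. The summed CPM of every knockout lies below the wild types, whereas both ratios and the H2-M10.4 share lie above them in every knockout. Both ratios include H2-M10.4, and without it the ratio to Gnao1 overlapped between genotypes.

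In the same libraries, of 119 tested V2R genes 61 fell and 7 rose, beside 0.683% and 0.0779% of all genes tested. Their median log2 fold change was -0.72. Their summed RNA was 5615 ± 313 CPM in the wild types, against 3732 ± 293 CPM in the knockouts, a ratio of 66.5%. Of 7 family C genes 3 fell, Vmn2r1 (-0.72), Vmn2r6 (-0.65) and Vmn2r7 (-0.61), with a median of -0.44. In the apical layer 0 of 169 tested V1R genes were called by edgeR (20 with an unadjusted p under 0.05), with a median of 0.11. Every knockout lay above every wild type for 21 V1R genes and below for 0, beside 7.22% and 8.95% of all genes tested. The mature neuron genes Omp (-0.31) and Trpc2 (-0.32) were lower in every knockout and did not pass the test (edgeR adjusted p = 0.203 and 0.197).

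The remaining class I pathway was measured from lists of its parts. Of 13 tested classical and other class I heavy chains 0 were called by edgeR, 0 had an unadjusted p under 0.05, and the median was -0.01. H2-D1 stood at 376.6 ± 45.9 CPM in the wild types, against 389.3 ± 32.9 CPM in the knockouts, and H2-K1 at 298.9 ± 49.3 and 310.6 ± 38.3 CPM (SD, n = 3 each). These are the classical molecules that present peptides to T cells. Of 5 other partners of B2m, such as Fcgrt, the neonatal Fc receptor, and Mr1, 0 were called (1 unadjusted, Cd1d1), with a median of 0.02. Of 17 genes of class I assembly and peptide supply, led by the chaperones Pdia3 and Calr, 0 were called and 0 had an unadjusted p under 0.05 (median 0.01). H2-Mv genes made up 31.5% ± 1.39 of heavy-chain TPM in wild type and 28.7% ± 2.11 in the knockout, which overlapped, and stood at 47.7 to 48.4 TPM per 100 TPM of B2m in wild type against 42.2 to 47.9 in the knockout.

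Other cell types were read from their markers. Of 8 tested immune cell markers 0 were called by edgeR (4 with an unadjusted p under 0.05), with a median of 0.37. Summed over the listed markers, they stood at 279.8 to 311.6 CPM in wild type and at 361.6 to 459.3 CPM in the knockout, highest in knockout replicate 1. Lyz2, a lysozyme of myeloid cells, had a fold change of 0.75 (edgeR adjusted p = 0.0646), while the B cell marker Cd79a stayed under 1 CPM in every library. The 16 interferon response genes, led by Oasl2 and Ifi27, and the 7 class II genes, led by Cd74 and H2-Ab1, had 0 called and 0 with an unadjusted p under 0.05, with medians of 0.06 and 0.01. Of 3 markers each of endothelium, main olfactory neurons and supporting cells, and of 4 of apical neurons, 0 were called (unadjusted, 1 apical). For 2 of the 4 apical markers every knockout lay above every wild type, beside 7.22% of all genes tested. The part of immune cells in the H2-Mv and B2m values was not tested.

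The 9 genes lie within 531 kb at chr17:36284227-36815564 (GRCm38, GENCODE M21), in the order H2-M10.2, H2-M10.1, H2-M10.3, H2-M10.4, H2-M11, H2-M9, H2-M1, H2-M10.5 and H2-M10.6. H2-M10.3 and H2-M10.4, with fold changes of -0.59 and 0.44, are neighbours on the same strand, their lower ends 80.8 and 174.7 kb from that of H2-M10.2. The 20 other genes of the interval with transcripts in the deposited tables are pseudogenes, of which 1 was tested (Gm8877, -0.42, edgeR adjusted p = 0.589). B2m lies apart, at chr2:122147686-122153083 on the plus strand.

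**Figure D4:**
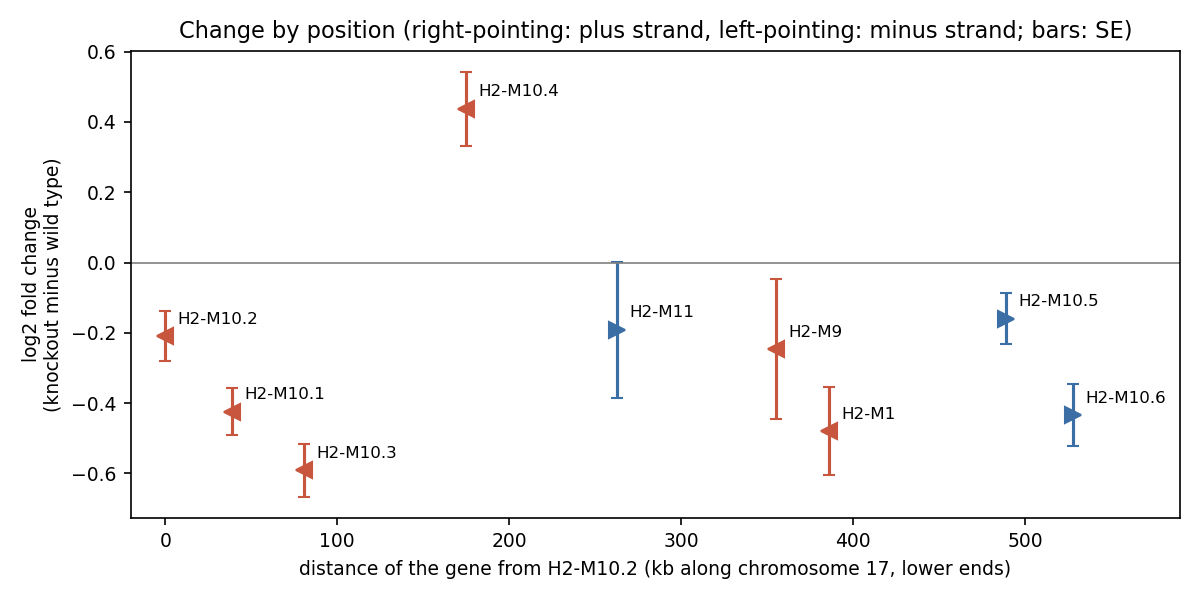
Log2 fold change (knockout minus wild type, with SE bars) of the 9 H2-Mv genes against distance along chromosome 17 from H2-M10.2, in kb, with triangles pointing along the strand. The 3 genes nearest the left end lie below 0, H2-M10.4 alone lies above, and the 5 genes to its right lie below.

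At the level of transcripts, 0 of 13 member transcripts were called by edgeR, beside 0.108% of the transcripts tested, and 7 had an unadjusted p under 0.05, beside 5.04%. DESeq2 called 3 of the 13, beside 1.12% of the transcripts to which it gave an adjusted p. For H2-M10.1, H2-M9 and H2-M10.4, the genes with 2 transcripts each, the split between the transcripts overlapped between genotypes. The longer H2-M10.1 transcript held 89.5% ± 1.10 of the gene's reads in wild type and 89.3% ± 1.96 in the knockout (SD, n = 3 each).

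The genotype effect was also computed in each sex, as the log2 ratio of mean CPM, and the difference between sexes was fitted with edgeR. With 1 female per genotype, the female effect is a single library against another and only the males supply the spread, so the test of a difference between sexes says little here. The H2-M10.3 log2 fold change was -0.59 in males and -0.58 in females, and that of H2-M10.4 was 0.44 and 0.43. No member passed edgeR's test of the difference between sexes beside 0.024% of all genes, and 0 of 10 had an unadjusted p under 0.05, beside 4.5%. The H2-M10.5 values were -0.08 in males and -0.32 in females, and the fitted difference was -0.25 (SE 0.146).

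By likeness of pattern over the 6 libraries, the genes closest to the H2-Mv sum were Gpcpd1, Hps3 and Tbc1d19, with root mean square distances of 0.0292, 0.0315 and 0.0329 on the log2 CPM scale among 10775 genes of at least 10 CPM. Those closest to B2m were Rgl1, Arhgef3 and Mindy2, at 0.0107, 0.0126 and 0.0131 among 10782 genes. None of these 6 genes was called between the genotypes.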

How the data were processed

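Poly(A) RNA-seq of 6 mouse vomeronasal organ samples was used, with groups, replicate numbers and sexes from the labels. Per the file headers, the authors deposited for each library an estimated count and a TPM value for 117081 transcripts. The submitters' processing notes name Trim Galore 0.6.6, Salmon 1.9.0, DESeq2 and the builds mm10 and GRCm38. Of the transcripts, 115942 matched GENCODE M21 by identifier, and the 1139 without a match held 0.304% of reads and were left out. Estimated counts were summed per gene and rounded to whole numbers. Genes kept by filterByExpr were tested with edgeR 4.0.16 (R 4.3.3, TMM, quasi-likelihood F test, genotype as the only term, Benjamini-Hochberg over all genes tested). The common biological coefficient of variation was 12.8%. SE is the size of the log2 fold change divided by the square root of F. Alternatives used DESeq2 1.42.0, limma 3.58.1 (log2 of TPM plus 0.1, genes of at least 0.5 TPM in 3 libraries), other scalings, a sex term, a replicate block, males only and leaving out each library. The edgeR script was tested on simulated data. Coding sequences were aligned with MAFFT 7.526. The named genes were the members, Cnpy1, Gnao1, Omp, Trpc2, called genes of the lists (V2R receptors as counts), the 2 most abundant genes of a pathway list, and the 3 genes nearest in pattern. Gm8877, Cd1d1 and Cd79a fall outside that rule and were picked with their values in view. The members and the gene lists were chosen with earlier results of these data known. Listed genes without a match, H2-L and H2-T26, were not analysed here.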

Additional observations from a re-analysis of the deposited data

How the results depend on the processing

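The number of H2-Mv genes called was 2 with edgeR, 5 with DESeq2, 1 with an effective length offset, 1 in males only, 1 without scaling factors, and 0 to 1 when 1 library was left out (0 without knockout replicate 1). Over all genes the count was 127 with edgeR, 411 with DESeq2, 76 in males only and 69 to 96 with 1 library left out. For member transcripts it was 0 with edgeR (47 of 43405 transcripts tested) and 3 with DESeq2 (486 of 43271). H2-M10.3 was called in 17 of 18 alternatives and H2-M10.1 in 8 of 18. H2-M10.1 had adjusted p of 0.0585 with the length offset, 0.276 with limma on log2 TPM, 0.179 in males only and 0.0838 without scaling factors. The H2-M11 fold change ranged from -0.34 to 0.01 with 1 library left out, reversing without knockout replicate 1. Over the 10 members and 18 alternatives, 165 of 180 results kept their direction and side of the threshold, 11 lost a call and 3 gained 1. Fits on fewer libraries have fewer samples by construction, and for the others the cause was not tested. Deviations of same-numbered libraries from their group means had correlations of 0.144, -0.101 and 0.222, and not every library correlated best with its own number. With 3 mice per group these values cannot decide whether a number marks a litter or a day, which the labels do not state. With the replicate block 2 H2-Mv genes and 154 of all genes were called. The sex interaction could not be fitted with the replicate block, since no residual degrees of freedom remain. Of the 10 members, H2-M9 and H2-M11 had the largest SE (0.199 and 0.193).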
